A study of Mus musculus with 2 samples.

Results

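CD8 T cells, the lymphocytes that kill tumour cells they recognise through the T cell receptor, were described in tumours that grew under the skin of mice from Lewis lung carcinoma (LLC) cells, an established lung cancer line of the mouse. Tumour tissue of mice given an IgG2a isotype antibody made up 1 single-cell library, called control here. The other library came from LLC tumours of mice given an antibody against PD-1, the inhibitory receptor encoded by Pdcd1, and was collected 7 days after treatment. The series text calls the control cells untreated while the sample labels name the isotype antibody, and neither gives the strain, age or number of mice or a collection time for the control tumours.

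The CD8 T cells were selected on measured values, that is on their own UMIs (unique molecular identifiers, each of which marks 1 captured RNA molecule). A member had at least 300 genes, at most 20% mitochondrial UMIs and under 500 UMIs per 1000000 (CPM) summed over the tumour genes Hmga2, Igf2bp1, Igf2bp2 and Wnt7b. It also held at least 2 UMIs of Cd3d, Cd3e, Cd3g, Trac and Trbc2 together, at least 1 UMI of Cd8a or Cd8b1, and 0 UMIs of Cd4, Foxp3 and C1qa. The rule found 128 cells among 17817 cells of both libraries that passed the gene and mitochondrial limits, 106 of 8395 in control and 22 of 9422 in anti-PD-1. Each group has 1 library, so no test was made. Intervals are exact 95% intervals that cover counting error only, and mice, preparations and collection times cannot be told apart from treatment.

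A CD8 T cell that meets antigen in a tumour makes granzymes and perforin, the enzymes and the pore that kill the target cell, together with interferon gamma and chemokines. Under lasting stimulation such cells are known to build up inhibitory receptors such as PD-1, LAG-3 and TIM-3 and the transcription factor TOX, a condition called exhaustion. Antibodies against PD-1 block the receptor on the cell surface without acting on its RNA directly.

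In control, CD8 T cells made up 1.26% of the cells that passed the limits (95% interval 1.03 to 1.53%). In anti-PD-1 they made up 0.233% (0.146 to 0.353%). Both libraries held like numbers of natural killer (NK) cells, 66 (0.786%) and 84 (0.892%), chosen by at least 2 UMIs of Ncr1, Klrb1c and Klre1 with at most 1 T cell UMI and 0 of C1qa. Counted among all cells with at least 2 T cell gene UMIs, CD8 T cells were 39.6% in control (106 of 268) and 25.3% in anti-PD-1 (22 of 87). A Cd8 UMI was held by 162 of the 268 cells in control (60.4%) and 27 of the 87 in anti-PD-1 (31.0%). CD8 T cells are part of these totals, so the shares do not divide the gap between T cells at large and CD8 T cells.

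The limits of the rule took cells from both libraries unequally. Of cells with at least 2 T cell UMIs and a Cd8 UMI, 53 of 162 in control and 5 of 27 in anti-PD-1 also held C1qa, a complement gene of macrophages. Another 58 control cells and 4 anti-PD-1 cells met every other condition but reached the tumour-gene limit. Just outside the rule lay 11 control and 5 anti-PD-1 cells with a single T cell UMI, and just inside it 11 and 6 members with exactly 2. A Cd8 sum of exactly 1 UMI was seen in 17 control and 3 anti-PD-1 members. With the condition on C1qa left out, the shares were 1.86% in control and 0.287% in anti-PD-1.

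Members were shallow cells. Their median was 1400 UMIs in control (538 to 20210) and 1285 in anti-PD-1 (600 to 16199), against 7473 and 8744 over all cells that passed the limits. Summed over members, control held 206399 UMIs and anti-PD-1 45713, a ratio of 4.52. A single anti-PD-1 member of 16199 UMIs held 35.4% of that library's sum. It carried 6 T cell UMIs, 157 UMIs of the collagen gene Col3a1 and 494 CPM of the tumour genes, and 4 control members of over 3 times the median depth held 20.6% of theirs. These 5 cells are called deep members, and ratios are given with and without them. Both libraries shared 107 cell barcodes, 1 of which belonged to a member, and no barcode was a member in both.

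The label was checked against genes that the rule did not use, apart from C1qa among the macrophage markers. Beside the 7 genes of the rule, the genes with the highest ratio to all other cells included Pdcd1, the NK-type receptor gene Klrc1, the T cell kinase gene Zap70, the adaptor gene Sh2d2a, and Ms4a4b, Cd2 and Ctsw, all known from T cells. NK cells held such genes too, with Zap70 at 268 CPM in control and 356 CPM in anti-PD-1, and Sh2d2a at 822 and 967 CPM. Members stood at 610 and 175 CPM for Zap70 and 1531 and 722 CPM for Sh2d2a, so both genes do not set members apart from NK cells. In control Cd2, an adhesion and costimulatory receptor, stood at 417 CPM in members and 5.57 CPM in other cells. The anti-PD-1 values were 634 and 3.83 CPM. Summed macrophage markers stood at 1051 and 1028 CPM in members, so RNA of other cells was present in both libraries. Other cells stood at 2108 and 2522 CPM. The sum counts C1qa, which the rule bars from members but not from other cells. The lower sum of members is thus in part set by the rule and is not read as a check of the label. Summed NK markers stood at 1003 CPM in control members and 591 CPM in anti-PD-1 members. Globin and other red blood cell genes stood at 673 CPM in control and 65.6 CPM in anti-PD-1, close to the 745 and 62.1 CPM of other cells of the same library. Fibroblast markers stood at 795 and 4003 CPM, and at 403 and 508 CPM without the deep members. The part of such RNA in the gene differences that follow was not tested.

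Log2 ratios of anti-PD-1 over control were taken from UMIs summed over members and scaled to CPM. A gene was measured with at least 20 UMIs over both libraries, and called where the ratio reached 2-fold and its interval excluded no change. Of 4025 measured genes 198 were called higher (4.92%) and 196 lower (4.87%), with a median log2 ratio of -0.11. Without the deep members 2971 genes were measured, 135 called higher (4.54%) and 89 lower (3%). Both ways of counting shared 64 higher genes, which is 32.3% of the first list and 47.4% of the second, and 76 lower genes, which is 38.8% and 85.4%. With 4.52 times fewer UMIs in anti-PD-1, a gene low in that library passed the minimum of 20 UMIs through control alone, so list counts describe the genes that passed, and the UMIs of genes below the minimum are given beside them.

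Inhibitory receptor genes were lower in anti-PD-1 CD8 T cells than in control CD8 T cells. Summed over all 14 genes of the list, including those below the minimum, they had 951 UMIs (4608 CPM) in control and 65 UMIs (1422 CPM) in anti-PD-1. The log2 ratio of these sums was -1.70 (-2.08 to -1.33), and -1.28 (-1.67 to -0.92) without the deep members. Of 9 measured genes 6 were called lower and 0 higher, with a median of -1.94. Without the deep members 5 were called lower. The other 5 genes had too few UMIs, namely Tigit (1 in control and 0 in anti-PD-1), Cd101 (13 and 1), Cd38 (10 and 0), Btla (10 and 2) and Cd200 (4 and 0).

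Lag3 encodes a receptor that binds MHC class II and restrains T cells. It had a UMI in 73 of 106 control members (68.9%) and 4 of 22 anti-PD-1 members (18.2%), at 1153 and 109 CPM. The log2 ratio was -3.40 (-5.03 to -2.16), and -2.95 (-4.59 to -1.71) without the deep members. In macrophage-type cells, which are deeper (median 3942 and 4245 UMIs), the share with a Lag3 UMI was 7.59% and 2.69%. Lag3 was thus seen in most control members and in few anti-PD-1 members, both above the macrophage-type share.

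Pdcd1 itself had a UMI in 74 of 106 control members and 10 of 22 anti-PD-1 members, at 1216 and 459 CPM. Its log2 ratio was -1.40 (-2.12 to -0.76), and -1.04 (-1.75 to -0.39) without the deep members. The share of macrophage-type cells with a Pdcd1 UMI was 2.07% and 0.51%. Pdcd1 RNA was therefore still present in members of the anti-PD-1 library, at a lower level.

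Havcr2, the gene of TIM-3, had 63 UMIs in 36 control members and 1 UMI in 1 anti-PD-1 member, a log2 ratio of -3.80 with a wide interval (-9.13 to -1.27). Macrophages use this gene too, and 25.9% and 17.4% of macrophage-type cells held it. Ctla4, a receptor that competes with CD28 for its ligands, had a UMI in 46 control and 3 anti-PD-1 members (-1.62, -2.97 to -0.52). Cd244a, a receptor of the SLAM family, had one in 49 and 2 members (-2.23, -4.14 to -0.83). Entpd1, the ectoenzyme CD39, stood at -1.94 and was no longer called without the deep members (-1.62, -3.94 to 0.01). Cd96 went the other way without being called, at 87.2 CPM in control and 175 CPM in anti-PD-1 (interval -0.41 to 2.28).

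**Figure D1:**
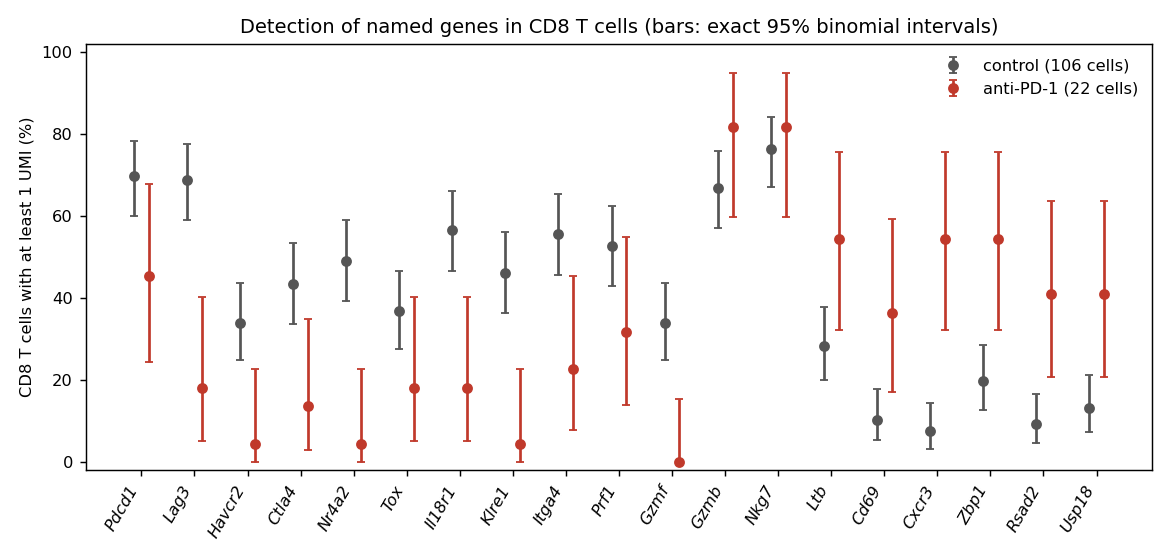
Share of CD8 T cells with at least 1 UMI of each gene (y axis, percent), for 106 control cells (grey) and 22 anti-PD-1 cells (red), with exact 95% binomial intervals. Lag3 stands at 68.9% in control and 18.2% in anti-PD-1, while Cxcr3 stands at 7.55% and 54.5%.

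Many control cells held at least 2 inhibitory receptor genes. Cells with at least 2 of Pdcd1, Lag3, Havcr2, Tigit and Entpd1 were 74 of 106 in control (69.8%, 60.1 to 78.4%) and 3 of 22 in anti-PD-1 (13.6%, 2.91 to 34.9%). With each cell thinned to 1000 UMIs, which leaves 85 and 17 cells, the shares were 58.8% and 11.8%. In macrophage-type cells the unthinned shares were 21.2% and 13.2%. Of the 74 control cells with a Pdcd1 UMI 58 also held Lag3, and of 10 such anti-PD-1 cells 3 did. Among cells without a Pdcd1 UMI, 15 of 32 in control and 1 of 12 in anti-PD-1 held Lag3. Control cells with Pdcd1 were deeper, at a median of 1531 UMIs against 1358.5 in those without. In anti-PD-1 the medians were 1197 and 1489.5. Exactly 2 of the genes were seen in 32 control cells and 1 anti-PD-1 cell, and exactly 1 in 18 and 9, so many cells lay near the limit.

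**Figure D2:**
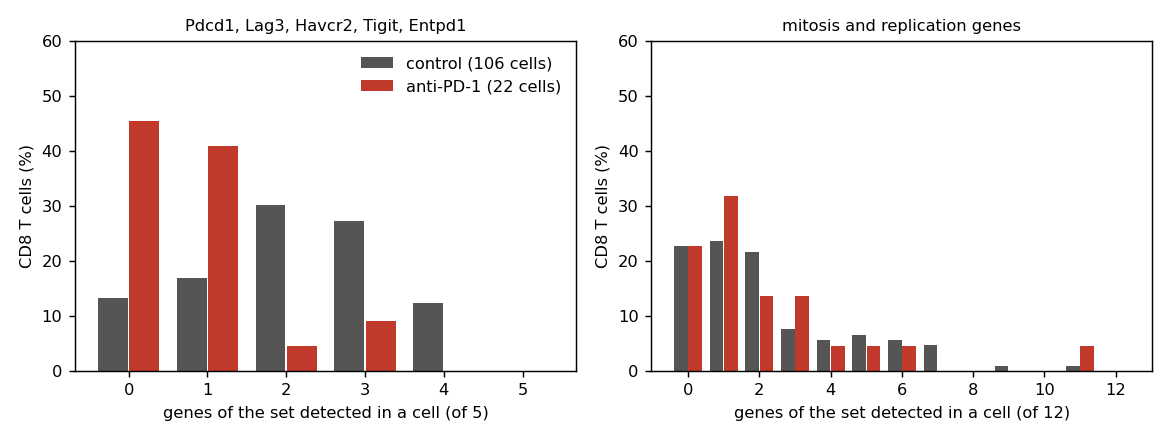
Number of genes detected per CD8 T cell (x axis) out of 5 inhibitory receptor genes (left) and out of 12 mitosis and replication genes (right), as a percent of the 106 control cells (grey) and 22 anti-PD-1 cells (red). No inhibitory receptor gene was detected in 13.2% of the control cells, against 45.5% in anti-PD-1, while no cycling gene was detected in 22.6% and 22.7%.

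Transcription factor genes of effector and exhausted T cells were also lower. All 13 measured factors of the 19 listed lay below the median gene. Their median was -1.43, and -1.13 over 12 genes without the deep members. Called lower were 5, and 2 without the deep members. The 6 factors below the minimum were Eomes (5 control UMIs and 3 anti-PD-1 UMIs), Irf4 (15 and 0), Prdm1 (7 and 0), Batf (3 and 0), Bcl6 (11 and 2) and Tox2 (0 and 0). Summed over the whole list the UMIs were 816 and 68, a log2 ratio of -1.41 (-1.79 to -1.05).

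Nr4a2, an orphan nuclear receptor gene that is induced by T cell receptor signals, had the lowest ratio. It had 126 UMIs in 52 of 106 control members and 1 UMI in 1 of 22 anti-PD-1 members (-4.80, -10.12 to -2.30), and 15.5% and 11.7% of macrophage-type cells held it. Tox had a UMI in 39 control and 4 anti-PD-1 members, at 252 and 87.5 CPM (-1.53, -3.45 to -0.08), and was not called without the deep members (-1.59, -3.91 to 0.04). Macrophage-type cells held Tox in at most 0.26% per library. Ikzf2, the zinc finger factor Helios, stood at -1.80, Nfatc1 at -1.67 and Tbx21, the factor T-bet, at -1.43. Of these 3 genes Ikzf2 stayed called without the deep members (-1.43, with an upper bound just under 0).

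Granzyme genes differed from one another. Gzmb, the main granzyme of killer T cells, was seen in 71 of 106 control and 18 of 22 anti-PD-1 members. Its level was 2263 CPM in control and 3763 CPM in anti-PD-1, a log2 ratio of 0.73 (0.47 to 0.99), below the 2-fold call, and 1.10 (0.84 to 1.36) without the deep members. Macrophage-type cells held a Gzmb UMI in 14.5% and 9.86%. The ratio of Gzmb depended on the cells used, at 0.02 with cells of at least 1000 genes and 1.56 with each cell weighted equally.

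Gzmf was seen in 36 of 106 control members with 255 UMIs, and in 0 of 22 anti-PD-1 members, which allows a share of cells with a UMI of up to 13.6% (3 counts of the total). A single control member held 61 of the 255 UMIs, and a deep control member held 56. Set against 3 UMIs, the CPM of Gzmf was 18.8-fold lower in anti-PD-1, and 11.2-fold lower without the deep members. The upper bound of its log2 interval was -3.93, and -3.17 without the deep members. Gzmf UMIs were also seen in cells not known to make it, since in control 27.1% of macrophage-type cells held Gzmf, against 34.0% of members. Thinned to 1000 UMIs, the control shares were 9.28% of macrophage-type cells and 26.9% of members. This background was lower in anti-PD-1 too, where 10.6% of macrophage-type cells held Gzmf unthinned. All cells other than members stood at 208 CPM of Gzmf in control and 23.6 CPM in anti-PD-1. Its part in the Gzmf ratio of members was not tested. Gzmc had 114 UMIs in 15 control and 3 UMIs in 2 anti-PD-1 members (-3.07, -5.37 to -1.49), and Gzmd 42 UMIs in 15 control members and 0 in anti-PD-1. Their unthinned shares in control members, both 14.2%, lay below those of macrophage-type cells (22.9% and 21.4%). Thinned, they lay above them, at 12.02% of members against 7.51% for Gzmc and 10.2% against 7.20% for Gzmd, and no order is read from either. In anti-PD-1 the unthinned macrophage-type shares were lower as well, at 16.9% for Gzmc and 5.25% for Gzmd. The genes Gzme, Gzmd, Gzmg, Gzmn, Gzmf, Gzmc and Gzmb lie side by side on chromosome 14 from 56117626 to 56262260 (mm10). They are close paralogs, so a probe may bind more than its own gene.

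Perforin, Prf1, went with the inhibitory receptors and not with Gzmb. It had a UMI in 56 of 106 control and 7 of 22 anti-PD-1 members, at 945 and 284 CPM (-1.73, -2.67 to -0.92), and at -1.29 (-2.22 to -0.48) without the deep members. The granule gene Nkg7 was level, at 1308 and 1334 CPM (0.03, -0.40 to 0.43). Cathepsin W (Ctsw) stood at -0.16 (-0.73 to 0.38) and Fas ligand (Fasl) at 0.22 (-0.70 to 1.06). Over the cytotoxic list of 17 genes, 14 were measured, 1 was called higher (Lamp1) and 4 lower, with a median of -0.51 and of 0.04 without the deep members. Unmeasured were Gzma (9 and 2 UMIs), Gzme (15 and 1) and Gzmm (0 and 5).

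Of 7 measured cytokine and chemokine genes in the list of 14, 4 were called lower and 1, Ltb, higher. Ccl3 and Ccl4, chemokines that draw other immune cells, had 50 UMIs against 1 (-3.47, -8.80 to -0.92) and 76 against 5 (-1.75, -3.41 to -0.47). Macrophage-type cells held Ccl3 in 28.1% and 29.8% and Ccl4 in 34.0% and 42.4%, above the unthinned shares in control members (17.9% and 28.3%). Thinned, the control shares of Ccl3 were 13.8% in members and 13.9% in macrophage-type cells, and those of Ccl4 23.6% and 16.7%. Macrophages are known to make both chemokines. Ifng, interferon gamma, had a UMI in 19 control and 2 anti-PD-1 members (-2.22, -5.31 to -0.27) against 0.69% and 0.77% of macrophage-type cells, and was not called without the deep members (-1.92, -5.01 to 0.02). Ccl5 stood at -1.18 and was not called without them either (-0.77). Ltb, the lymphotoxin beta gene, was higher, with a UMI in 30 of 106 control and 12 of 22 anti-PD-1 members (1.46, 0.68 to 2.21). Of the 7 unmeasured genes Il2, Csf2, Il10 and Il21 had at most 1 UMI over both libraries, Tnf had 7 and 0, Lta 2 and 4, and Tnfsf14 6 and 0.

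Among costimulatory and cytokine receptors, both chains of the interleukin-18 receptor were lower. Il18r1 had a UMI in 60 of 106 control and 4 of 22 anti-PD-1 members, at 693 and 87.5 CPM (-2.99, -4.88 to -1.60), and between -5.29 and -1.42 without the deep members. Il18rap stood at -1.33 (-2.28 to -0.52) and was just short of the 2-fold call without the deep members. The 2 genes are neighbours on chromosome 1 (mm10 40465552 to 40500854 and 40515362 to 40551705). Tgfbr2, a chain of the TGF-beta receptor, was higher, at 300 and 722 CPM (1.26, 0.61 to 1.90), a gene that 57.6% and 75.4% of macrophage-type cells also held. The costimulatory receptor 4-1BB (Tnfrsf9) stood at 1042 and 613 CPM, short of the 2-fold call (-0.77, -1.39 to -0.19). Of 16 measured genes in this list of 17, 1 was called higher and 2 lower.

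Homing genes split in both directions. Of 13 measured genes in the list of 18, 6 were called higher and 3 lower, and without the deep members 7 and 2 of 11. Higher with all members were Cxcr3, Cd69, Cxcr4, Ccr2, Itgb7 and Itgb1, and lower were Itga4, Rgs1 and Cxcr6. Without the deep members Cxcr4 fell below the minimum and Cxcr6 was not called (-0.77, -1.94 to 0.23). The highest ratio was that of Cxcr3, the receptor for chemokines that interferon gamma induces. It had 13 UMIs in 8 of 106 control members and 30 UMIs in 12 of 22 anti-PD-1 members, at 63.0 and 656 CPM. The log2 ratio was 3.38 (2.40 to 4.44), and 3.79 (2.79 to 4.90) without the deep members. Thinned shares were 6.65% and 51.8%, and macrophage-type cells held Cxcr3 in 3.62% and 5.63%. Cd69, an early activation and residency marker, had a UMI in 11 and 8 members (2.50, 1.47 to 3.54), with 11 of its 20 anti-PD-1 UMIs in a single cell. The integrin chain Itga4 had a UMI in 59 of 106 and 5 of 22 members (-2.26, -3.91 to -0.99). The integrin gene Itgb7 stood at 1.41, with 33 of its 67 anti-PD-1 UMIs in the deep member, and at 1.37 (0.74 to 1.98) without the deep members. The residency integrin gene Itgae had a UMI in 0 of 106 and 0 of 22 members, which by the same limit allows shares of cells with a UMI of up to 2.83% and 13.6%. The 4 genes below the minimum, Itgae among them, had 33 control UMIs and 0 anti-PD-1 UMIs.

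Other naive and memory genes had few UMIs, with 43 and 20 in the 7 genes below the minimum. Ccr7, the chemokine receptor that guides cells to lymph nodes, had 50 UMIs in 8 control members, 35 of them in a single cell, and 3 UMIs in 2 anti-PD-1 members (-1.88, -4.21 to -0.25). The factor Lef1 had 16 and 9 UMIs (1.34, -0.02 to 2.61) and Tcf7, which encodes TCF-1, had 9 and 4. The survival gene Bcl2 stood at 0.35 (-0.08 to 0.75) and Il7r, a receptor chain for interleukin-7, at -0.68 (-2.65 to 0.83).

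Cells with Cxcr3 were not without effector genes. All 12 anti-PD-1 cells with Cxcr3 held Gzmb, and 1 of the 12 held Lag3. In control 6 of the 8 cells with Cxcr3 held Gzmb, and 4 held Lag3. Of 10 anti-PD-1 cells without Cxcr3, 6 held Gzmb and 3 held Lag3. Of 98 such control cells, 65 held Gzmb and 69 held Lag3. Cells with Cxcr3 were deeper, at a median of 1405.5 against 1195 UMIs in anti-PD-1 and 1838.5 against 1392 in control. No link between these genes is read from so few cells.

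T cell receptor signalling genes stood near the median gene. Of 20 measured genes in the list of 21, 0 were called higher and 5 lower, with a median of -0.13, and without the deep members 3 were called higher and 2 lower, with a median of 0.24. Zap70, the kinase that the engaged receptor recruits, had a UMI in 61 of 106 and 7 of 22 members, at 610 and 175 CPM (-1.80, -3.05 to -0.78). Plcg1, the phospholipase downstream of it, stood at -1.25 and remained called without the deep members (-1.29). Lck stood at -0.18 (-1.02 to 0.58) and the membrane adaptor Lat at 0.77 (0.05 to 1.46). The other 3 genes called lower were Ubash3a (interval -4.32 to -0.37), which encodes a negative regulator of receptor signals, the adaptor gene Sh2d2a (-1.08, -1.65 to -0.56) and Themis (-1.03, -2.21 to -0.04). These 3 were not called without the deep members.

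NK-type receptors, which activated CD8 T cells can express, were lower, with 4 of 7 measured genes in the list of 14 called lower and 0 higher. The 5 genes of the list below the minimum were Klrb1c (6 control UMIs and 2 anti-PD-1 UMIs), Ncr1 (6 and 0), Klra7 (2 and 0), Klrg1 and Klra3 (0 and 0). Klre1 had 85 UMIs in 49 control members and 1 UMI in 1 anti-PD-1 member (-4.23, -9.56 to -1.72). Klrd1 (CD94) and Klrc1 (NKG2A), which pair to bind a non-classical MHC molecule, both stood at -1.42 and remained called without the deep members (-1.17 and -1.09). These 3 genes lie on chromosome 6 between 129577905 and 129678973 (mm10). Of control members 20, and of anti-PD-1 members 1, had at least 2 UMIs of Ncr1, Klrb1c and Klre1. With those members left out, an alternative chosen after seeing the data, Klre1 had no UMI in anti-PD-1. Set against 3 UMIs, its log2 ratio was -1.37, with an upper interval bound of -0.98. Lag3 then stood at -3.42, Pdcd1 at -1.35 and Prf1 at -1.73.

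**Figure D3:**
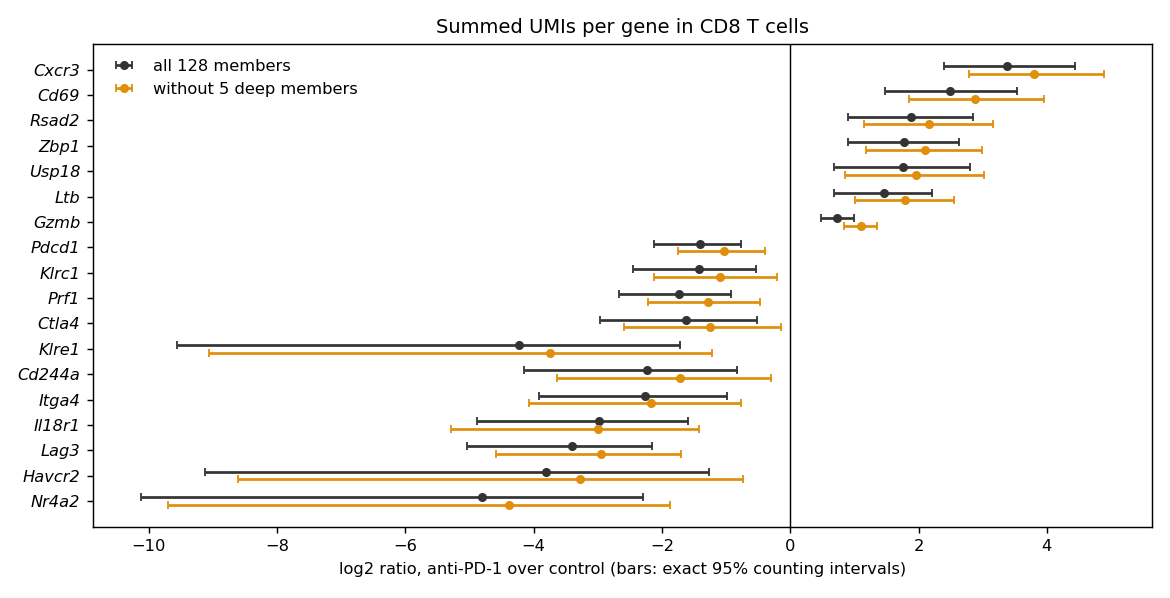
Log2 ratio of summed UMIs, anti-PD-1 over control (x axis), for named genes in all 128 CD8 T cells (dark) and without the 5 deep members (orange), with exact 95% counting intervals. Genes from Cxcr3 (3.38) to Gzmb (0.73) lie above 0 and genes from Pdcd1 (-1.40) to Nr4a2 (-4.80) below it, with and without the deep members.

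Leaving out the condition on C1qa, which gives 156 control and 27 anti-PD-1 cells, ended more calls among the named genes than it kept. Of 20 genes called higher among those named by rule, 8 stayed called, and of 47 called lower 19 did. Most of these genes were chosen for their ratios with the C1qa condition in place, so the counts do not stand for all called genes. Lag3 then stood at -3.29, Nr4a2 at -3.26, Prf1 at -1.56, Itga4 at -1.31 and Il18r1 at -1.26, and Cxcr3 at 3.22 and Cd69 at 2.62. Among the calls that ended were Pdcd1 (-0.93, -1.59 to -0.33), Zap70 (-0.89, -1.79 to -0.11), Ctla4 (-0.81, -1.90 to 0.12), Tox (-1.32, -3.23 to 0.10) and Tgfbr2 (0.88, 0.49 to 1.25). They also ended for Entpd1 (-0.23), Nfatc1 (-0.07), Ifng (-1.53, up to 0.08), Ccl5 (-0.57), Ccr7 (-0.74), Il18rap (-0.48), Cxcr6 (-0.53) and Cxcr4 (0.07). The signalling genes Plcg1 (-0.29) and Sh2d2a (-0.53) and the NK-type receptor genes Klrd1 (-0.70) and Klrc1 (-0.96) fell short of the call as well. The median of the inhibitory receptor list was then -0.81 and that of the transcription factor list -0.36.

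Type I interferon response genes were higher, and their median changed sign when the C1qa condition was left out. Summed over 28 genes in the files the UMIs were 632 and 247, or 3062 and 5403 CPM, a log2 ratio of 0.82 (0.60 to 1.03). Of 16 measured genes 15 lay above the median gene, with a median of 0.93, and 4 were called higher and 0 lower. Without the deep members 9 of 14 were called higher, with a median of 1.39. Without the condition on C1qa, which adds cells that hold macrophage RNA, the median of the list was -0.16.

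The 4 called genes were Rsad2, Zbp1, Usp18 and Oas3. Rsad2, the antiviral enzyme viperin, had a UMI in 10 of 106 control and 9 of 22 anti-PD-1 members (1.89, 0.90 to 2.85), and stood at -0.22 without the C1qa condition. Zbp1, a sensor of nucleic acids, had one in 21 and 12 members (1.78, 0.91 to 2.63), and at 0.56 without that condition. Usp18, a brake on interferon signalling, had one in 14 and 9 members (1.76, 0.69 to 2.80), and Oas3 in 13 and 7 (1.67, 0.47 to 2.82). Without the C1qa condition Usp18 stood at 0.43 and Oas3 at 0.15, neither of them called. The 12 genes of the list below the minimum had 104 and 37 UMIs. Macrophage-type cells held Rsad2 in 23.3% and 34.7% and Zbp1 in 39.1% and 35.2%. Thinned shares of Zbp1 were 11.6% and 52.2% in members, and 13.01% and 11.6% in macrophage-type cells.

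The promoters of Rsad2 and Oas3 are shown because both genes were called and both hold a match to the interferon-stimulated response element, the site bound by the factor complex that type I interferon activates. They are the 250 bases before the gene start from RefSeq (GRCm38.p6, minus strand, chr12:26456453-26456702 and chr5:120777660-120777909), with the match in capitals. The motif was GAAANNGAAA on either strand. It starts 120 bases before the start of Rsad2, on the other strand, and 75 bases before that of Oas3.
Rsad2 promoter: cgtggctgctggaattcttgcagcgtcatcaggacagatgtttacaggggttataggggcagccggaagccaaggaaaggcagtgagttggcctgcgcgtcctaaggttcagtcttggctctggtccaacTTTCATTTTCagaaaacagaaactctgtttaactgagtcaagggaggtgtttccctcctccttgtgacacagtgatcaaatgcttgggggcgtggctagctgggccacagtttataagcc
Oas3 promoter: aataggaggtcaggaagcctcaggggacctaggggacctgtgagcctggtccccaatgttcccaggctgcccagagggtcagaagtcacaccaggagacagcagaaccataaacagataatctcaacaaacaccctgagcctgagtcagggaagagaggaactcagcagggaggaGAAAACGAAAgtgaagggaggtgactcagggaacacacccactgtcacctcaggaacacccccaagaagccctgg
In windows of 250 bases before to 50 after the start, 12 of 22 listed type I interferon genes with a RefSeq promoter held the motif (54.5%), against 3.99% of all 27025 genes. The list was made of known response genes, so this share describes the list and is not a result of these data. A match is a run of letters and says nothing on binding in these cells.

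Genes of the interferon gamma response did not move together. Of 20 measured genes in the list of 30, 1 was called higher and 3 lower, with a median of -0.18 (0.18 without the deep members, where 3 were higher and 1 lower). The GTPase gene Igtp was called higher (1.26, 0.35 to 2.12), with -0.47 when the C1qa condition was left out, and the guanylate-binding protein gene Gbp8 lower (-1.89, -3.81 to -0.47), with -0.99 and no call without that condition. Gbp2 was called lower from 29 control UMIs against 1 (-2.68, -8.04 to -0.09). It was held by 13.2% of control members against 56.7% of control and 30.2% of anti-PD-1 macrophage-type cells, and fell below the minimum without the deep members. Both families hold close paralogs. Irf1, a transcription factor that interferon gamma induces, stood at -0.96 (-2.14 to 0.04), and macrophage-type cells held it in 56.7% and 35.1%. The 9 genes of the list below the minimum had 69 and 15 UMIs.

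Cycling genes gave no clear difference. In control 34 of 106 members (32.1%) held at least 3 of 12 mitosis and replication genes, as did 7 of 22 in anti-PD-1 (31.8%). In the deeper macrophage-type cells the shares were 45% and 42.1%. Thinned shares of members were 18.8% (11.2 to 28.8%) and 23.5% (6.81 to 49.9%). Mki67, a marker of cycling cells, stood at 0.22 (-0.67 to 1.03) and at -0.45 (-1.83 to 0.69) without the deep members. Top2a stood at 0.28 and at -0.81 (-2.18 to 0.31), with 22 of its 29 anti-PD-1 UMIs in the deep member. Of 25 measured proliferation genes 4 were called higher and 2 lower, and without the deep members 0 and 1 of 18.

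The remaining lists held at most 3 called genes each with all members, where 4.92% of all measured genes were called higher and 4.87% lower. Glycolysis and hypoxia genes had 3 of 14 measured called lower, the lactate exporter Slc16a3 (-1.91), the glucose transporter Slc2a3 (-1.33) and Pfkp (-1.01), none of which stayed called without the deep members or without the C1qa condition. Immediate early and heat shock genes had 3 of 16 called lower, led by Jund (-1.69, -3.04 to -0.60, and -0.71 without the C1qa condition), with a median of -0.90 and 14 of 16 below the median gene. Apoptosis and survival genes had 0 of 11 called with all members, and Bcl2l1, which encodes the survival factor BCL-XL, was called higher without the deep members (1.37, 0.34 to 2.33). Genes below the minimum had 57 and 12 UMIs in the first of these lists, 68 and 11 in the second and 20 and 3 in the third.

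**Figure D4:**
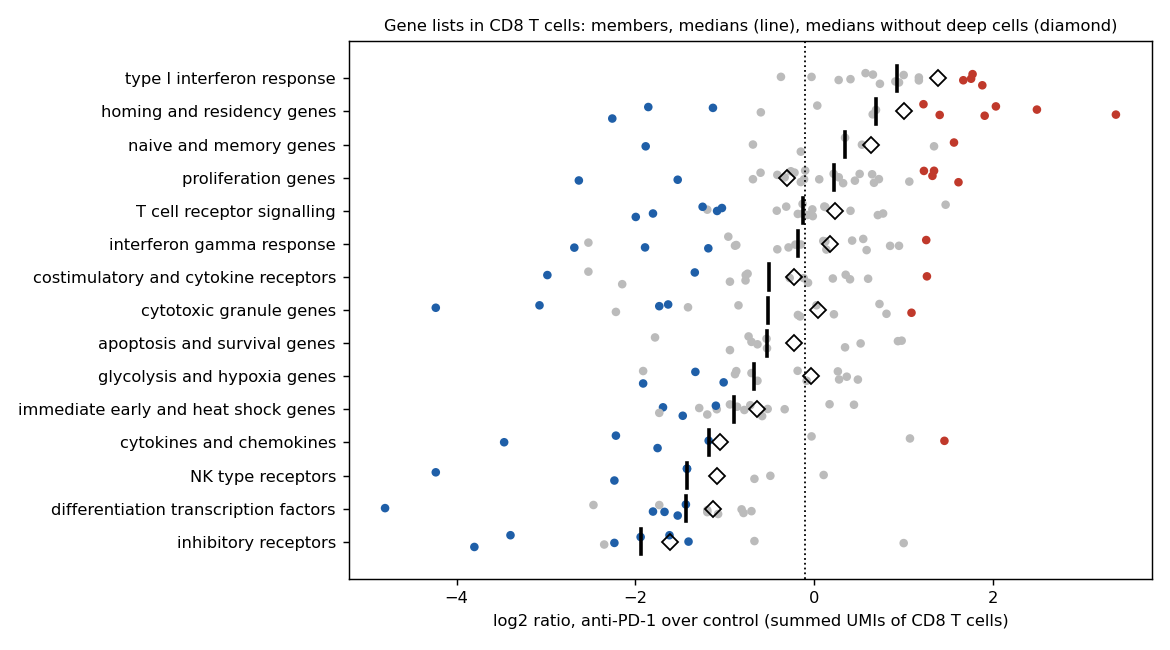
Log2 ratio of anti-PD-1 over control (x axis) for the measured genes of 15 lists in CD8 T cells; red and blue points were called higher and lower, black lines are list medians, diamonds are medians without the 5 deep members, and the dotted line is the median of all measured genes (-0.11). The inhibitory receptors have the lowest median (-1.94) and the type I interferon genes the highest (0.93).

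Some genes at the ends of the ranking belonged to no list. They came from the 12 highest and 12 lowest ratios whose interval excluded no change, where a gene needed 30 UMIs or more and 2 times the CPM of other cells. Wnt10b, which encodes a secreted Wnt ligand, had 64 UMIs in 26 of 106 control members and 1 UMI in 1 of 22 anti-PD-1 members (-3.83, -9.15 to -1.30). Macrophage-type cells held it in 1.38% and 0.90%, and NK cells had 0 UMIs in both libraries. Tmem163, a membrane protein gene, had a UMI in 32 and 1 members (-3.41, -8.74 to -0.86). Emb, the adhesion protein embigin, was higher, at 170 and 678 CPM (interval of the log2 ratio 1.25 to 2.74), with a UMI in 20 and 13 members, a gene that 62.2% and 63.5% of macrophage-type cells held. Abcb1b, an efflux transporter, had one in 15 and 8 members (1.93, 0.87 to 2.96). The highest ratio, that of Ptn (3.96), came from 55 anti-PD-1 UMIs, 53 of them in the deep member, and Ptn, Prc1 and Ckap2 were below the minimum without the 5 deep members of both libraries.

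NK cells of the same libraries, 66 and 84 cells, were compared with CD8 T cells gene by gene. Of 69 named genes with a ratio in both, the intervals did not overlap for 29, and 24 of those had opposite signs, 18 of them lower in anti-PD-1 CD8 T cells and higher in anti-PD-1 NK cells. Over all 3621 genes measured in both cell types the intervals did not overlap for 3.81%, with opposite signs for 3.29%. Most named genes were chosen for their ratios in CD8 T cells, so a higher share among them is not read as a result. These are differences between 1 library pair in 2 cell types, with no test beyond counting error. Klre1, which helped to choose the NK cells, stood at -4.23 in CD8 T cells and 0.70 (0.30 to 1.10) in NK cells. Il18r1 stood at -2.99 and 1.04 (0.52 to 1.58), and Prf1 at -1.73 and 0.52 (0.34 to 0.71). Lag3 stood at -3.40 and at -0.41 (-0.98 to 0.15), and Cxcr3 at 3.38 and 0.29 (-0.63 to 1.22). Ifng was opposite too, at -2.22 and 2.61 (0.83 to 5.02). Other genes had like ratios, with Gzmb at 0.73 and 0.93 (0.82 to 1.04) and Ccl5 at -1.18 and -1.46 (-2.29 to -0.68). Gzmf had 4054 UMIs in control NK cells and 267 in anti-PD-1 NK cells (-3.90, -4.08 to -3.72). CD4 T cells, 10 in control and 8 in anti-PD-1, were too few to set beside them.

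**Figure D5:**
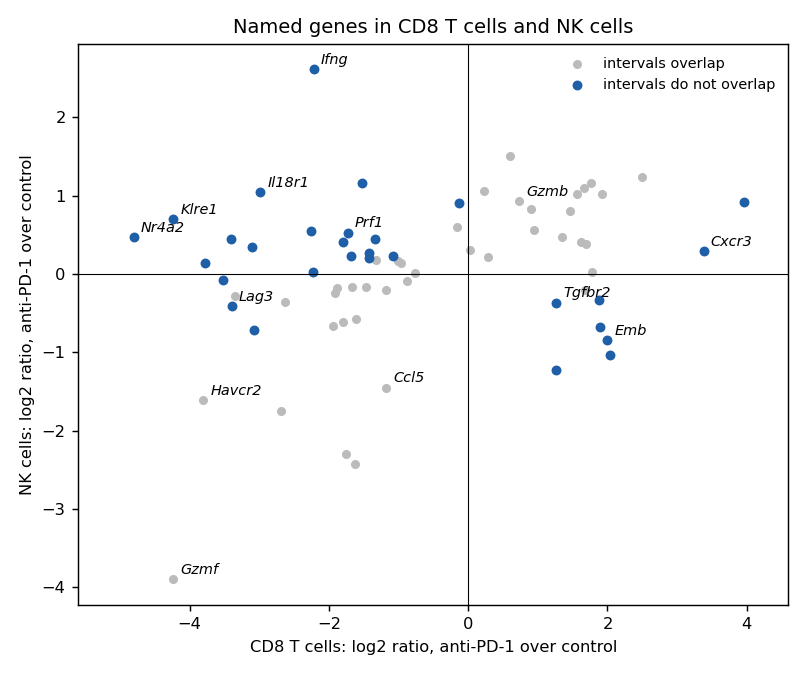
Log2 ratio of anti-PD-1 over control in CD8 T cells (x axis) and NK cells (y axis) for 69 named genes; blue points have 95% counting intervals that do not overlap between both cell types, grey points have overlapping ones. Klre1, Nr4a2 and Il18r1 lie at the left and above 0, while Gzmf is low and Gzmb high in both.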

How the data were processed

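Tumour cells and host cells of 2 mouse libraries, 1 control and 1 anti-PD-1, were analysed. The deposited values are raw UMI counts per gene and barcode, not normalized, per the file headers. Per the labels' protocols the libraries come from the Flex kit of 10x Genomics, where each gene is read by probes of its own, though a 3' protocol is also named. The submitters' processing notes give mm10 and Cell Ranger 7.0.1, while the file headers give Cell Ranger 9.0.1. Barcodes numbered 8441 and 9423, with 113268618 and 115407230 UMIs. The files list 19070 genes, and 10 symbols that stand on several rows were not used by symbol. No doublet caller was run, and the deep members and the tumour-gene limit bear on doublets.

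Counts of members were summed per library and scaled to CPM, in Python 3.11.15 with numpy 2.4.6, scipy 1.17.1 and pandas 2.3.3. Ratios carry exact conditional binomial intervals, and shares Clopper-Pearson intervals. A side with 0 UMIs was set against 3 counts over the library. A share of 0 is given with the limit of 3 counts of the total, which bounds cells with a UMI and not cells that express the gene. Thinning drew 1000 UMIs per cell and left out shallower cells. Macrophage-type cells held at least 2 UMIs of C1qa and no T cell UMI, under the tumour-gene limit, and served as background for shares. Probe counts depend on the probe, so levels were compared between libraries and not between genes. The summing and interval code was tested on simulated data. Coordinates are from GENCODE on mm10.

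Named genes were the 12 highest and 12 lowest ratios defined in the text, up to 4 genes per list with the largest ratios whose interval excludes no change, 27 chosen T cell genes where measured (23 were), and the leading genes. Further genes are named as members of a list. The members, the 15 lists and these genes were chosen with earlier results of these data known. A few results are not reported here.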

Additional observations from a re-analysis of the deposited data

How the results depend on the processing

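No paired analysis was possible because each group has 1 library and no result comes from a test. The share of CD8 T cells, 1.03 percentage points lower in anti-PD-1 (-1.03), was -1.57 without the condition on C1qa and -14.3 among T cells. The 198 genes called higher became 122 with a tumour-gene limit of 250 CPM, 305 without the C1qa condition, 58 with thinned cells and 370 with no minimum of UMIs. The 196 called lower became 94, 354 and 40 under the first 3 of these, 89 without the deep members and 478 with each cell weighted equally. These settings also moved the number of genes measured. The cytokine list had a median of -1.18, and of -2.65 in cells of 1000 genes or more. The median of the type I interferon list turned from 0.93 to -0.16 without the C1qa condition, as did Rsad2 (-0.22), Igtp (-0.47), Ptn (-0.53), Lat2 (0.32), Mcm2 (0.15) and Tk1 (0.10). With each cell weighted equally Prc1 stood at -0.0038 and Cenpf at -0.043. For these the cause was not tested. Of 15 lists 7 kept the sign of their median under every setting tried, among them inhibitory receptors (-2.86 to -0.81), transcription factors (-1.78 to -0.36), NK-type receptors (-1.97 to -0.70) and homing genes (0.13 to 1.09). Of 1010 gene values under an alternative 947 stayed within their counting interval, 55 moved further and 8 turned. With 22 anti-PD-1 cells, 1 UMI is worth 21.9 CPM there and 4.84 CPM in control, so genes under about 20 UMIs cannot be placed.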
